A study of Homo sapiens with 15 samples.

Results

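AHR, NFE2L2, TIPARP and HMOX1, 4 transcripts of the cellular response to foreign chemicals and oxidants, were followed in Caco-2 cells as 2 sensors and a target gene of each. The members were the array rows whose platform annotation gave these symbols, with the brightest row standing for a symbol. Each of the 4 had exactly 1 row, out of 14884 symbols named on the array, and all 4 passed the filter on dim genes in all 15 arrays. Caco-2 is a human colon carcinoma line that forms an enterocyte-like sheet after confluence, and the cells were used between 15 and 19 days after seeding. In the LPS+RSV group (5 arrays) a pretreatment of 1 h with trans-resveratrol (RSV), a polyphenol of grapes, at 50 µM preceded 1 µg/mL lipopolysaccharide (LPS, endotoxin, here from E. coli K12) for 48 h. Another 5 arrays were of cells given the same LPS without resveratrol, and 5 were of untreated control cells. Resveratrol was dissolved in ethanol, and the labels name no ethanol for the other groups, so resveratrol and its solvent cannot be told apart here. No group received resveratrol without LPS. The labels number the replicates without saying that each was a separate culture, and every p-value below therefore reflects array-to-array spread that could be technical.

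AHR, the aryl hydrocarbon receptor, is a ligand-activated transcription factor of the bHLH-PAS family that waits in the cytoplasm with HSP90 chaperones, enters the nucleus when a ligand binds, and pairs there with ARNT on xenobiotic response elements. TIPARP, a mono-ADP-ribosyltransferase, is among the genes it induces, and the enzyme acts back on AHR to shut the signal off. NFE2L2 encodes NRF2, a transcription factor of the CNC family that KEAP1 holds for degradation until oxidants or electrophiles release it; it then pairs with small MAF proteins on antioxidant response elements. HMOX1, the inducible heme oxygenase, is one of its classical targets and is also repressed by BACH1. Both sensors are controlled largely at the protein level, so an array reads how much sensor message is present and, through the targets, a part of their output. In the gut epithelium both pathways handle dietary compounds, among them polyphenols such as resveratrol, which is known as an AHR antagonist and as an NRF2 activator in other cell systems.

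In the RefSeq annotation of GRCh38.p14, AHR spans chr7:17298652-17346147, TIPARP chr3:156674590-156706770, NFE2L2 chr2:177230303-177264727 and HMOX1 chr22:35381096-35394207, all protein-coding genes. The link from sensor to target runs through short DNA motifs, so the promoters of the members that hold the AHR motif are shown. Promoter windows from RefSeq (GRCh38.p14) were found for 3 of the 4 members, AHR, TIPARP and NFE2L2, and the 250 bases before each transcript start were searched on both strands for GCGTG, the core of the xenobiotic response element, and for TGACNNNGC, the core of the antioxidant response element. Capitals mark GCGTG, which reads CACGC where it lies on the opposite strand. The windows shown are those of the most upstream start of TIPARP, at chr3:156674340-156674589 on the plus strand, and of NFE2L2, at chr2:177264728-177264977 on the minus strand, each written along the strand of the gene.
TIPARP: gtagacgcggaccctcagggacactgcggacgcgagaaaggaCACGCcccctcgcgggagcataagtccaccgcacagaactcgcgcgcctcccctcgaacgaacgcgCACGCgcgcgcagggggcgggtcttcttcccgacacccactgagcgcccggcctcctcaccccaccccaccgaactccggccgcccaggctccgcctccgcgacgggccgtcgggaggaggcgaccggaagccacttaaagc
NFE2L2: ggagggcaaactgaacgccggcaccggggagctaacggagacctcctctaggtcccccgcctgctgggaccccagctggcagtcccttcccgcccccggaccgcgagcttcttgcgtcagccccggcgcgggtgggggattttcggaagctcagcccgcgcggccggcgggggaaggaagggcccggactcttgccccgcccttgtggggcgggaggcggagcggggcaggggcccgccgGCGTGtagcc
The TIPARP window held 2 matches, 208 and 142 bases before the start, and its other 2 windows held 0. Each of the 2 NFE2L2 windows held 1 match, in the window shown 10 bases before the start. The AHR window, at chr7:17298402-17298651 on the plus strand, held 0 matches to GCGTG, and none of the windows of these 3 genes held TGACNNNGC (0 matches). Of all 35116 such windows 32.2% held GCGTG and 10.9% held TGACNNNGC, so a match is common and is only a description of the letters. With 0 matches to the second motif, no match counts for both.

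The arrays were alike in scale, with medians between 5.49 and 5.54 on the log2 scale. Of 12 markers of intestinal epithelium, 9 were named on the array, and VIL1, CDX2, EPCAM, SI and the 5 others were above the filter floor in all 15 arrays. Their group means were not all alike. KRT20 averaged 5.77 in LPS+RSV, 6.80 in LPS and 5.63 in control, whereas SI was lowest in LPS, at 12.10, 11.80 and 12.23. The part of these markers in the members' values was not tested. Of 10 markers of fibroblast, endothelial and immune cells 5 were named; VIM, PECAM1, VWF and LYZ averaged 5.99, 5.78, 5.56 and 6.33 over the arrays, and the lysosomal gene CD68, which is not confined to macrophages, averaged 11.5. All 5 were above the filter floor of 5.03 to 5.09 in all 15 arrays. LYZ averaged 6.07 in LPS+RSV, 6.56 in LPS and 6.35 in control, the same order as the sensors, with a limma adjusted p of 0.435 between LPS+RSV and LPS and of 0.921 between LPS and control, and its part in the members' values was not tested. LPS+RSV replicate 1 stood apart from the rest, its correlation with the remaining arrays over 11804 genes averaging 0.946, where the other arrays averaged 0.973 to 0.984. In bulk RNA, fewer cells that express a gene and less RNA per cell cannot be told apart.

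Both sensor transcripts were highest in LPS and lowest in LPS+RSV. AHR read 9.59, 10.07, 10.13, 9.88 and 9.77 in LPS+RSV replicates 1 to 5. It read 10.40, 10.57, 10.22, 10.39 and 10.32 in LPS replicates 1 to 5 and 10.02, 10.08, 10.27, 9.92 and 10.07 in control replicates 1 to 5. Every LPS+RSV array therefore lay below every LPS array, while 4 of the 5 LPS arrays lay above all control arrays and LPS replicate 3 lay under control replicate 3. Group means were 9.89 ± 0.22 in LPS+RSV, 10.38 ± 0.13 in LPS and 10.07 ± 0.13 in control (log2, SD, n = 5 each).

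NFE2L2 read 7.19, 7.98, 7.93, 7.85 and 7.59 in LPS+RSV replicates 1 to 5. It read 8.27, 8.25, 8.28, 8.34 and 8.31 in LPS replicates 1 to 5 and 8.09, 8.06, 7.94, 7.94 and 7.84 in control replicates 1 to 5. The LPS arrays formed a tight band above both other groups, with no overlap with either. The LPS+RSV arrays were the most scattered, with replicate 1 far down and replicates 2, 3 and 4 inside the range of control. Group means were 7.71 ± 0.33 in LPS+RSV, 8.29 ± 0.04 in LPS and 7.98 ± 0.10 in control (log2, SD, n = 5 each).

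TIPARP, the AHR target, kept the order of its sensor in part: LPS was highest, and LPS+RSV and control lay together. It read 7.93, 7.72, 7.78, 7.92 and 7.65 in LPS+RSV replicates 1 to 5. It read 7.92, 8.14, 7.99, 8.10 and 8.08 in LPS replicates 1 to 5 and 7.89, 7.93, 7.76, 7.92 and 7.65 in control replicates 1 to 5. Of the LPS arrays 4 lay above all control arrays, and the exception, replicate 1, was also the one that overlapped LPS+RSV. Group means were 7.80 ± 0.12 in LPS+RSV, 8.04 ± 0.09 in LPS and 7.83 ± 0.12 in control (log2, SD, n = 5 each).

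HMOX1, the NRF2 target, also averaged highest in LPS, but its groups overlapped throughout and only 1 LPS array lay above all control arrays. It read 7.86, 7.05, 7.31, 7.49 and 7.78 in LPS+RSV replicates 1 to 5. It read 7.62, 7.86, 7.59, 7.41 and 7.36 in LPS replicates 1 to 5 and 7.27, 7.21, 7.30, 7.48 and 7.75 in control replicates 1 to 5. The highest and the lowest of the 15 arrays were both LPS+RSV arrays, replicates 1 and 2, the first level with LPS replicate 2, and NFE2L2 stood the other way round in these 2, lowest in replicate 1 and highest of its group in replicate 2. Group means were 7.50 ± 0.33 in LPS+RSV, 7.57 ± 0.20 in LPS and 7.41 ± 0.22 in control (log2, SD, n = 5 each).

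**Figure D1:**
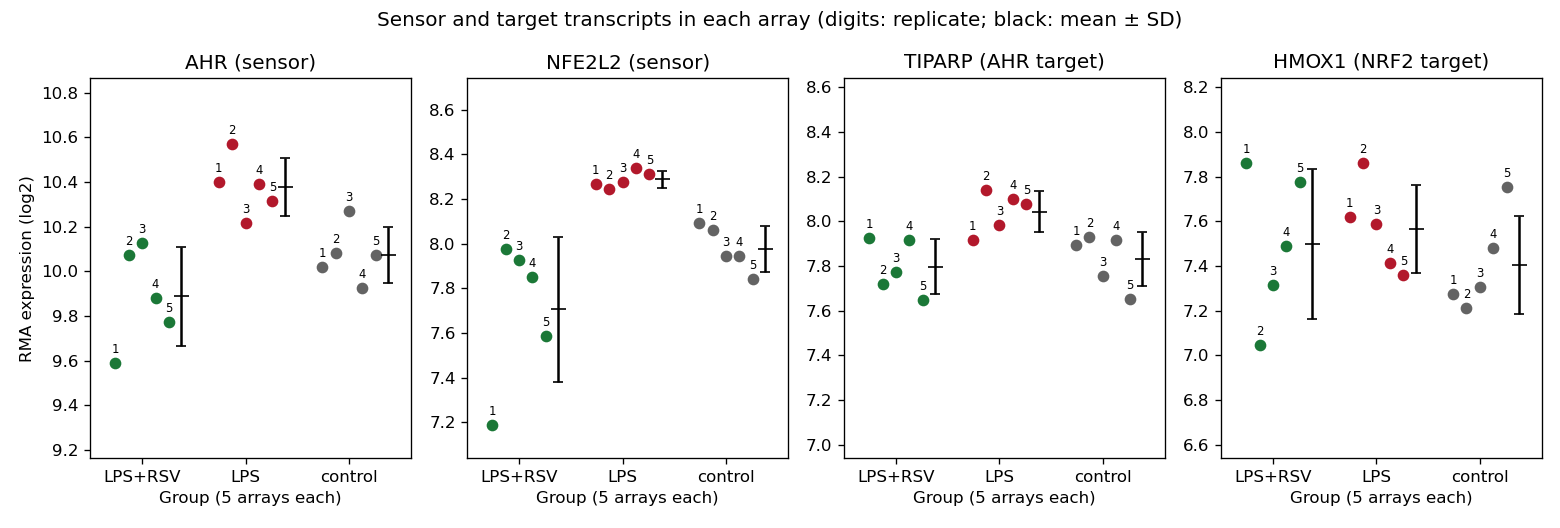
RMA expression (log2, vertical axes of equal span) of AHR, NFE2L2, TIPARP and HMOX1 in each of the 15 arrays, by group, with the replicate number above each point and the group mean ± SD in black. LPS arrays of NFE2L2 lie between 8.25 and 8.34, above all 10 arrays of the other groups, whereas the HMOX1 groups overlap.

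What resveratrol changed in endotoxin-exposed cells was asked by setting LPS+RSV against LPS. In limma, fitted to all 15 arrays and adjusted over the 11804 genes kept, AHR differed by -0.49 ± 0.10 (log2, SE, adjusted p = 0.0687) and NFE2L2 by -0.58 ± 0.12 (adjusted p = 0.0667). These were the differences at ranks 33 and 27 of all genes by p, and neither passed the threshold of 0.05. The levels of the 2 sensors in LPS+RSV were 0.712 times (95% confidence interval 0.613 to 0.827) and 0.668 times (0.562 to 0.795) those in LPS. TIPARP differed by -0.25 ± 0.08 (adjusted p = 0.153) and HMOX1 by -0.07 ± 0.15 (adjusted p = 0.832). Of the 4 members 0 passed, where 0.0424% of all genes did; at an unadjusted p under 0.05, 3 of 4 were lower, where 10.5% of all genes were. All 5 LPS+RSV arrays lay below all 5 LPS arrays for 2 of 4 members, where that held for 1.39% of genes. For HMOX1 the interval of the difference, -0.38 to 0.25, still holds changes of the size seen in TIPARP.

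The adjusted p of both sensors moved with single arrays and with the fit, to either side of the value above, and passed the threshold in few of these settings. Without LPS replicate 3, AHR differed by -0.53 (adjusted p = 0.0436) and NFE2L2 by -0.58 (adjusted p = 0.0495). Without LPS+RSV replicate 2 they differed by -0.54 and -0.65 (adjusted p = 0.0427 for each). Without LPS+RSV replicate 1, the array that stood apart, they differed by -0.41 (adjusted p = 0.118) and -0.45 (adjusted p = 0.0814). Without LPS replicate 1, LPS replicate 2 or LPS+RSV replicate 5 in turn, the adjusted p lay between 0.185 and 0.198 for AHR and between 0.148 and 0.182 for NFE2L2. In a fit to the 2 groups alone it was 0.210 for each, and without LPS replicates 1 and 2 together it was 0.337 for AHR and 0.313 for NFE2L2. The direction was the same in each of these fits.

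The comparison of LPS with control asked what endotoxin itself changed. AHR differed by 0.30 ± 0.10 (log2, SE, adjusted p = 0.403), NFE2L2 by 0.31 ± 0.12 (adjusted p = 0.543) and TIPARP by 0.21 ± 0.08 (adjusted p = 0.492), all by limma. Expressed as folds these were 1.23 (95% confidence interval 1.06 to 1.43) for AHR, 1.24 (1.04 to 1.48) for NFE2L2 and 1.16 for TIPARP. HMOX1 differed by 0.16 ± 0.15 (adjusted p = 0.857), with an interval of -0.15 to 0.48. None of the 4 passed (0 genes), against 0.0254% of all genes, and 3 of 4 were higher at an unadjusted p under 0.05, against 4.62% of all genes. NFE2L2 alone among the 4 had all LPS arrays above all control arrays, as 1.08% of all genes had. The SE above draws on the spread of all 3 groups. In a limma fit to LPS and control alone, NFE2L2 differed by 0.31 ± 0.06 (adjusted p = 0.169), and the adjusted p of AHR was 0.314. Without LPS replicates 1 and 2 together, the limma adjusted p was 0.854 for NFE2L2 and 0.889 for AHR.

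LPS+RSV was also set against control, which compares the combined exposure with untreated cells and shares its arrays with the comparisons above. AHR differed by -0.18 ± 0.10 (log2, SE, adjusted p = 0.492) and NFE2L2 by -0.27 ± 0.12 (adjusted p = 0.464), and without LPS+RSV replicate 1 these were -0.11 and -0.14. TIPARP differed by -0.03 ± 0.08 (adjusted p = 0.870) and HMOX1 by 0.09 ± 0.15 (adjusted p = 0.800), by limma. None of the 4 passed (0 genes), as for all genes (0%), where 1239 genes had an unadjusted limma p under 0.05; of the 4 members 1, NFE2L2, was lower at that level, as 6.4% of all genes were. All 4 members had overlapping groups, and 1.72% of all genes did not. By adjusted p none of the 4 members passed in any comparison, a threshold that allows for all genes tested and does not measure overlap. The groups of AHR and NFE2L2 did not overlap in LPS+RSV against LPS, nor did those of NFE2L2 in LPS against control. Those of TIPARP and HMOX1 overlapped in every comparison. Before adjustment the interval of LPS+RSV against control excluded 0 for NFE2L2 (-0.52 to -0.02) and held 0 for AHR, TIPARP and HMOX1.

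**Figure D2:**
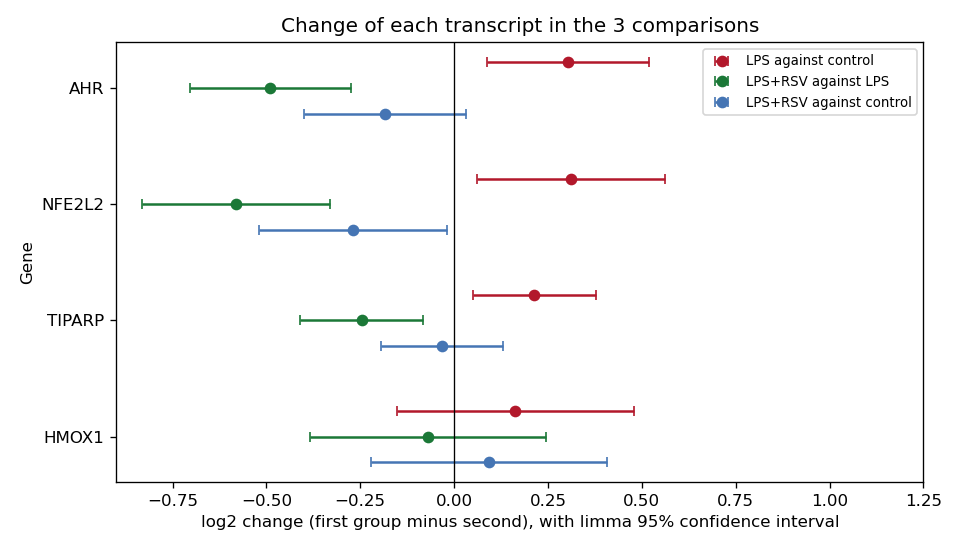
Log2 change of each transcript (horizontal axis, first group minus second) with its limma 95% confidence interval, in each of the 3 comparisons, 5 arrays per group. The intervals of AHR, NFE2L2 and TIPARP exclude 0 where LPS is set against control and where LPS+RSV is set against LPS, before adjustment over all genes. In the third comparison the interval of NFE2L2 alone excludes 0 (-0.52 to -0.02), and those of HMOX1 hold 0 in each.

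Whether a target moved as far as its sensor was tested on the per-array difference of the 2 log2 values. A fixed offset of each probe set cancels in this difference between groups. Unequal response of the probe sets would not cancel and was not tested. HMOX1 minus NFE2L2 averaged -0.21 ± 0.64 in LPS+RSV and -0.72 ± 0.23 in LPS (SD, n = 5 each), a change of 0.51 ± 0.30 (SE; exact permutation test, 2-sided, p = 0.111, adjusted p = 0.357 over 6 tests). TIPARP minus AHR averaged -2.09 ± 0.29 in LPS+RSV and -2.34 ± 0.12 in LPS, a change of 0.24 ± 0.14 (exact permutation p = 0.119, adjusted p = 0.357). In LPS against control the changes were -0.15 ± 0.17 for HMOX1 minus NFE2L2 and -0.09 ± 0.11 for TIPARP minus AHR, and in LPS+RSV against control 0.36 ± 0.32 and 0.15 ± 0.16, with exact permutation p between 0.294 and 0.421. So in none of the 6 tests was a target shown to move differently from its sensor, although the LPS+RSV arrays spread from -0.93 to 0.67 in HMOX1 minus NFE2L2, wider than LPS (-0.95 to -0.39) or control (-0.85 to -0.09). Without LPS+RSV replicate 1 the change of HMOX1 minus NFE2L2 against LPS was 0.29, and without replicate 2 it was 0.69 (exact permutation p = 0.0238, adjusted p = 0.143).

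Over all 15 arrays the 2 sensors ran together, and with group means subtracted HMOX1 ran against its sensor. AHR and NFE2L2 correlated over the 15 arrays (Pearson r = 0.875, permutation p = 3e-05, adjusted p = 0.00036 over 12 relations; Spearman rho = 0.804 with a permutation p of 0.00059, adjusted 0.00354), but this r contains the differences between groups. With group means subtracted it was 0.655 (permutation p = 0.0503, adjusted p = 0.151; rho = 0.393 with a permutation p of 0.22, adjusted 0.441), and without LPS+RSV replicates 1 and 3, the arrays farthest out in AHR, it was 0.282, so the relation within groups rests on those arrays. HMOX1 and NFE2L2 showed no relation over the arrays as they stood (r = -0.357, permutation p = 0.194, adjusted p = 0.333; rho = -0.304 with a permutation p of 0.272, adjusted 0.466), whereas with group means subtracted r was -0.802 (permutation p = 0.00058, adjusted p = 0.00348) and rho -0.864 (permutation p = 6e-05, adjusted p = 0.00072). That relation held without LPS+RSV replicates 1 and 2, the arrays farthest out in NFE2L2, at r = -0.834. Strong correlation within groups was not confined to this pair. Among all genes kept, the top percentile by r within groups began at 0.933 with NFE2L2 and at 0.883 with HMOX1. Over the arrays as they stood, it began at 0.884 with NFE2L2 and at 0.817 with AHR. The 0.875 of the sensor pair lay below the first of these and above the second. The permutation p is against no correlation and does not set either pair apart from other genes. How many genes ran as strongly against NFE2L2 was not tested. From replicate 2 to replicate 5, HMOX1 rose and NFE2L2 fell in both LPS+RSV and control. In LPS, HMOX1 fell over the same replicates and NFE2L2 ended higher than it began. The permutations treat the arrays of a group as exchangeable, and the part of replicate order in the relation was not tested.

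TIPARP and AHR had r = 0.487 over the arrays (permutation p = 0.0681, adjusted p = 0.164; rho = 0.527 with a permutation p of 0.0456, adjusted 0.137) and r = -0.217 with group means subtracted (permutation p = 0.492, adjusted p = 0.738; rho = -0.239 with a permutation p of 0.446, adjusted 0.67). Array by array within a group, the AHR target therefore gave no sign of following its sensor. Without the 2 arrays farthest out in AHR these r were 0.52 and -0.00985. TIPARP and NFE2L2 had r = 0.53 over the arrays (permutation p = 0.04, adjusted p = 0.151; rho = 0.661 with a permutation p of 0.00823, adjusted 0.0329) and r = -0.0548 with group means subtracted (permutation p = 0.903, adjusted p = 0.903; rho = 0.107 with a permutation p of 0.751, adjusted 0.819). Without the 2 arrays farthest out in TIPARP these were 0.417 and -0.355. The other pairs, AHR with HMOX1 and TIPARP with HMOX1, had r between -0.451 and 0.101 on either scale, none with an adjusted permutation p under 0.05.

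HMOX1 and NFE2L2 correlated with opposite signs with the leading difference between arrays of 1 group. How many of all genes correlated as strongly with it was not tested. Within groups, arrays differed most along 1 component, computed without the members, that took 45.4% of the variance within groups, and a cell cycle score, made from 28 proliferation genes, spanned -0.87 to 0.45 in LPS+RSV, -0.01 to 0.98 in LPS and -1.01 to 0.45 in control. With group means subtracted, HMOX1 correlated with the component at r = -0.919 (permutation p = 2e-05, adjusted p = 0.00012 over 8 relations; rho = -0.911 with a permutation p of 7e-05, adjusted 0.00028). NFE2L2 correlated with it at r = 0.821 (permutation p = 3e-05, adjusted p = 0.00012; rho = 0.854 with a permutation p of 7e-05, adjusted 0.00028). Without LPS+RSV replicates 1 and 2, its extreme arrays, these were -0.872 and 0.8. Neither AHR (r = 0.479, permutation p = 0.127, adjusted p = 0.203; rho = 0.446 with a permutation p of 0.133, adjusted 0.213) nor TIPARP (r = 0.151, permutation p = 0.634, adjusted p = 0.634; rho = 0.0607 with a permutation p of 0.853, adjusted 0.853) was shown to follow it.

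Against the cell cycle score the r values were -0.856 for HMOX1 (permutation p = 8e-05, adjusted p = 0.000213; rho = -0.85 with a permutation p of 0.00025, adjusted 0.000667) and 0.548 for NFE2L2 (permutation p = 0.0269, adjusted p = 0.0538; rho = 0.757 with a permutation p of 0.00038, adjusted 0.00076). Without LPS+RSV replicate 2 and control replicate 5 they were -0.732 and 0.37. With the score removed as well as group means, HMOX1 and NFE2L2 had r = -0.77 (permutation p = 0.0145, adjusted p = 0.087 over 6 relations), no longer past the threshold. With the score as a covariate in limma, HMOX1 differed by 0.39 between LPS and control (adjusted p = 0.0721). Between LPS+RSV and LPS it differed by -0.37 (adjusted p = 0.160), and both changes were larger than without the score. AHR and NFE2L2 each differed by -0.43 between LPS+RSV and LPS (adjusted p = 0.158 and 0.160), smaller than without it. Between LPS and control AHR differed by 0.26, NFE2L2 by 0.20 and TIPARP by 0.16 in that limma fit (adjusted p between 0.269 and 0.422), also smaller. In the same comparisons, all 28 genes of the score averaged above control in LPS and below LPS in LPS+RSV, with median changes of 0.55 and -0.68 on the log2 scale, larger than the changes of the sensors. None passed the adjusted threshold in limma (0 genes), while 9 of 28 were higher in LPS against control and 18 of 28 lower in LPS+RSV against LPS at an unadjusted p under 0.05, where 4.62% and 10.5% of all genes were. The part of the score in the members' differences was not tested.

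**Figure D3:**
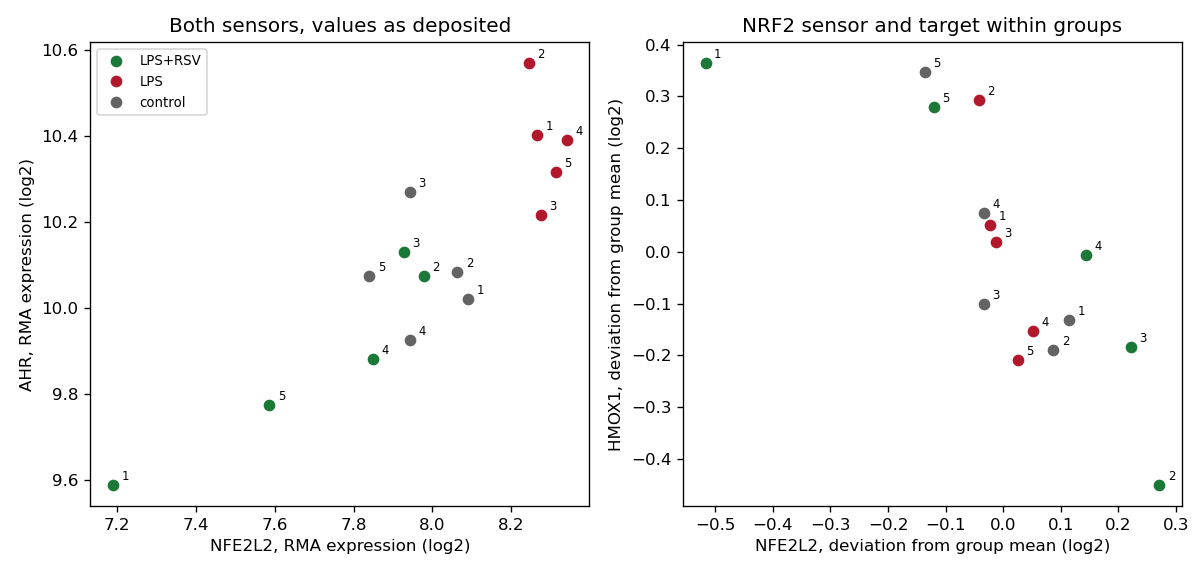
Left, AHR against NFE2L2 in each of the 15 arrays (RMA expression, log2 on both axes); right, HMOX1 against NFE2L2 as deviations from the group mean (log2), with points coloured by group and marked with the replicate number. The sensors rise together with LPS arrays at the upper end (r = 0.875), and HMOX1 falls as NFE2L2 rises within groups (r = -0.802).

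Partners of AHR were few on the annotated array. Of 7 genes of the AHR complex 3 were named and tested: AHR, ARNT and PTGES3, the p23 co-chaperone. ARNT, the partner that AHR needs on DNA, was placed opposite to AHR: it averaged 9.25 ± 0.11 in LPS+RSV and 8.99 ± 0.11 in LPS, a difference of 0.25 ± 0.07 (SE, adjusted p = 0.129, limma). In LPS against control ARNT differed by -0.23 ± 0.07 (limma adjusted p = 0.356), and it did not pass in either comparison. PTGES3 differed by -0.13 ± 0.10 and 0.15 ± 0.10 in these comparisons. Of 10 AHR target genes only TIPARP was named here (1 gene), so CYP1A1, CYP1B1, AHRR and NQO1 were not analysed here and TIPARP alone stands for AHR output.

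Of 11 listed regulators of NRF2, 8 were tested, and 0 passed in any comparison. BACH1, the repressor of HMOX1, was listed but not named here. KEAP1, the adaptor that marks NRF2 for degradation, differed by 0.07 ± 0.09 in LPS+RSV against LPS and 0.11 ± 0.09 in LPS against control. BTRC, the other ubiquitin ligase adaptor that can bind NRF2, was lower in LPS than in both other groups without overlap: it averaged 8.61 ± 0.10 in LPS+RSV, 8.44 ± 0.06 in LPS and 8.67 ± 0.06 in control. Its differences were 0.18 ± 0.06 in LPS+RSV against LPS (limma adjusted p = 0.176) and -0.24 ± 0.06 in LPS against control (limma adjusted p = 0.302). CUL3, the scaffold of the KEAP1 ligase, differed by -0.16 ± 0.06 in LPS+RSV against LPS and by -0.18 ± 0.06 against control, in the second case with groups that did not overlap (limma adjusted p = 0.464). SQSTM1, the p62 autophagy receptor that competes for KEAP1, averaged 7.60 ± 0.09 in LPS+RSV and 7.67 ± 0.13 in LPS. All 5 arrays of each lay above control, at 7.44 ± 0.06. The differences from control were 0.16 ± 0.07 and 0.23 ± 0.07 (limma adjusted p = 0.464 and 0.356). Of all genes, 2.21% had no overlap in LPS against control, 2.8% in LPS+RSV against LPS and 1.72% in LPS+RSV against control. Apart from KEAP1, the regulators named here were picked for low p in their list. DPP3, another KEAP1 binder, differed by 0.21 ± 0.08 in LPS against control, the small MAF gene MAFG by -0.15 ± 0.06 in LPS+RSV against LPS, and the kinase gene GSK3B by -0.18 ± 0.09 in LPS+RSV against control.

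Of the relatives of NFE2L2 in the CNC family, NFE2L3 was placed as NFE2L2 was, above control in LPS and below LPS in LPS+RSV, and NFE2L1 was placed the other way; whether they differ from NFE2L2 was not tested. NFE2L3 differed by -0.32 ± 0.18 in LPS+RSV against LPS and by 0.32 ± 0.18 in LPS against control, and NFE2L1, which controls proteasome genes, by 0.23 ± 0.13 and -0.06 ± 0.13, none past the threshold (limma adjusted p between 0.341 and 0.953). These were 2 of the 5 relatives listed.

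The output genes of NRF2 tested besides HMOX1, with the constitutive HMOX2 left out, had medians near 0. NQO1, GCLC, GCLM and SLC7A11 were listed but had no named row, so these medians do not cover them. Of 36 listed, 17 were tested; in LPS+RSV against LPS 10 were higher and 7 lower with a median of 0.03 on the log2 scale, where all genes had a median of 0.01 and 52.1% were higher. In LPS against control 13 were higher and 4 lower with a median of 0.03, where 52.7% of all genes were higher, and in LPS+RSV against control 10 were higher and 7 lower with a median of 0.03, where 55.8% were. None passed in any comparison (0 genes), and at an unadjusted limma p under 0.05 there were 3 of 17 in LPS+RSV against LPS, 1 where LPS was set against control and 1 where LPS+RSV was, and 18.6%, 7.88% and 10.5% of all genes had such a p in these comparisons. These counts are near the background, and the genes are named for their values only. The 3 in LPS+RSV against LPS were all lower: the glutathione peroxidase GPX2 at -0.50 ± 0.22, the microsomal glutathione transferase MGST1 at -0.26 ± 0.11 and UGDH, which makes the sugar donor for glucuronidation, at -0.23 ± 0.09. GPX2 read 6.89 in LPS+RSV replicate 2 and 5.89 to 6.03 in the others of that group. SRXN1, the sulfiredoxin that restores peroxiredoxins, differed by 0.27 ± 0.13 in LPS against control and by -0.09 ± 0.13 in LPS+RSV against LPS.

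The thioredoxin genes TXN and TXNRD1 differed by -0.07 ± 0.09 and 0.0035 ± 0.064 in LPS+RSV against LPS, and the peroxiredoxin PRDX1 by 0.06 ± 0.07. The pentose phosphate genes PGD, TALDO1 and TKT, which supply NADPH, differed by 0.07 ± 0.12, -0.04 ± 0.07 and 0.04 ± 0.13. These are small against both sensors' differences in the same comparison. Among the others, the carbonyl reductase CBR1 differed by 0.31 ± 0.18, the glutathione transferase GSTA4 by 0.12 ± 0.10 and OSGIN1, an oxidative stress gene, by 0.10 ± 0.12, and the glutathione reductase GSR differed by 0.09 ± 0.09 in LPS+RSV against control.

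Around HMOX1 in the heme pathway, 4 other genes were tested. HMOX2, the constitutive heme oxygenase, differed by 0.03 ± 0.11 in LPS+RSV against LPS and 0.01 ± 0.11 in LPS against control, and BLVRA, a biliverdin reductase, by 0.03 ± 0.06 in the first. BLVRB, the other biliverdin reductase, averaged 9.51 ± 0.16 in LPS+RSV and 9.29 ± 0.07 in control, a difference of 0.22 ± 0.07 (SE, adjusted p = 0.464, limma). Its groups did not overlap, as for 1.72% of all genes. FECH, which inserts iron into heme, differed by 0.05 ± 0.10 in LPS+RSV against LPS.

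**Figure D4:**
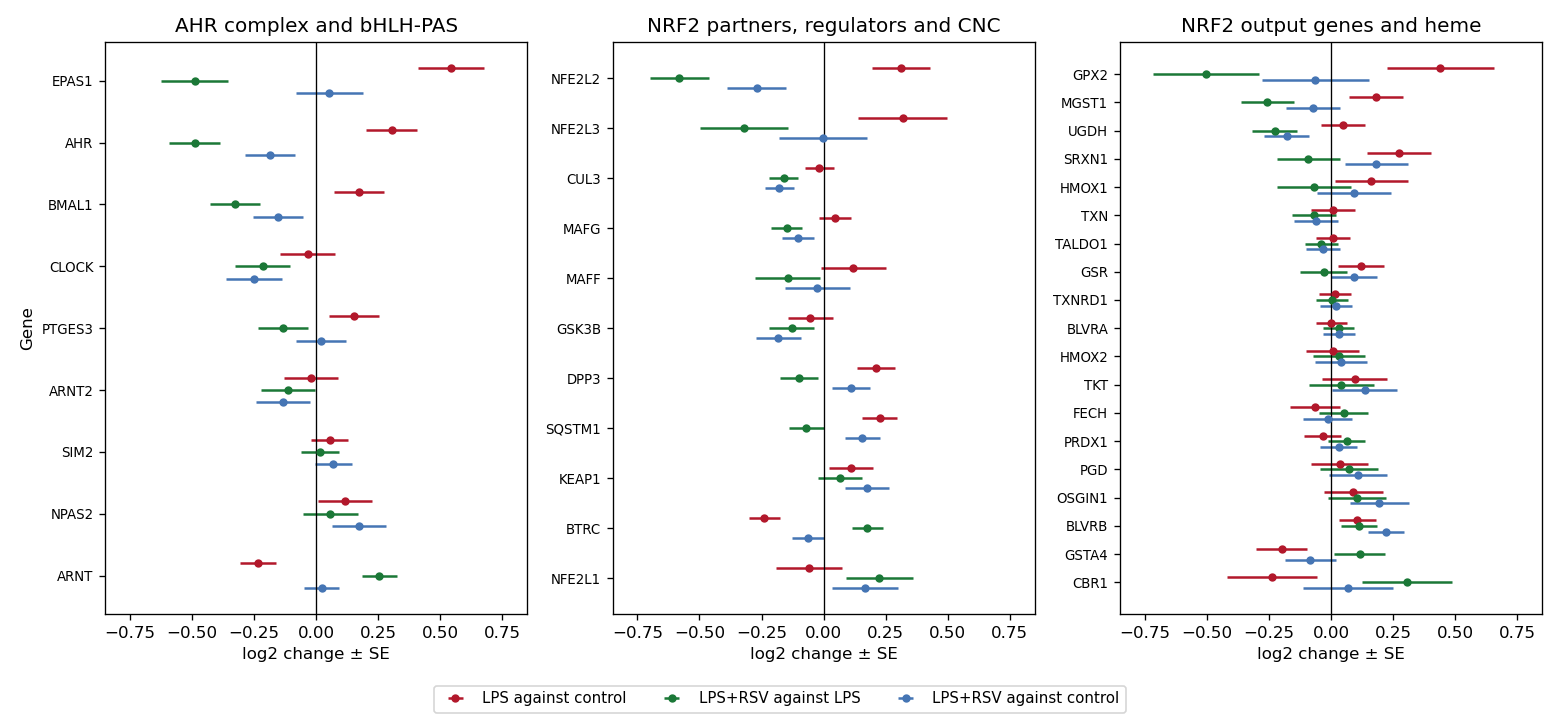
Log2 change ± SE (horizontal axis) of every tested gene of the AHR and bHLH-PAS lists, the NRF2 regulator and CNC lists, and the NRF2 output and heme lists, ordered by LPS+RSV against LPS, with 1 point for each of the 3 comparisons. NFE2L2 at -0.58 and AHR at -0.49 lie at or next to the low end of their lists, and ARNT at 0.25 at the high end. Most of the output genes tested lie near 0, with GPX2 at -0.50, and NQO1, GCLC, GCLM and SLC7A11 are not among them.

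Genes whose log2 values ran most like each member over the 15 arrays were sought among the 11804 genes kept, by Pearson r, as a description. For AHR they were SRGAP1, ADGRG6 and TNPO1, at 0.927, 0.926 and 0.918, and ADGRG6 also led with group means subtracted, at 0.92, before SCAMP1 and ZNF268. For NFE2L2 they were ATP13A3, NARS1 and CRIM1, at 0.951, 0.948 and 0.943, and with group means subtracted SMC6, PIBF1 and CCDC144CP, at 0.990, 0.982 and 0.978. For TIPARP they were USP14, JPT1 and IER3, at 0.906, 0.854 and 0.843, and with group means subtracted SLAMF8, ZNF562 and ZSCAN20, at 0.831, 0.81 and 0.799. For HMOX1 they were AVPI1, DUSP8 and SLC66A1, at 0.962, 0.924 and 0.916, and AVPI1 led again within groups, at 0.969, before TIMM13 and PGAP2. The nearest genes within groups were closer for NFE2L2 and HMOX1, the members that followed the shared component, than for TIPARP. The background differed in the same way. Within groups, the top percentile of all genes by r began at 0.933 for NFE2L2, 0.883 for HMOX1, 0.765 for AHR and 0.626 for TIPARP.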

How the data were processed

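Per the submitters' processing notes the authors made the values with RMA (version not given in the sources used here), and the deposited table holds their log2 expression for every probe set and array. It has 53617 rows for 15 arrays; 16098 rows had 1 gene symbol in the platform annotation, 0 several, and 37519 were unnamed here. The brightest probe set stood for each of 14884 symbols, and 11804 genes above the 40th percentile of an array in at least 5 arrays were kept. Limma 3.58.1 (R 4.3.3; lmFit, eBayes) was fitted with 3 group means to all 15 arrays. Adjusted p-values are Benjamini-Hochberg values over all 11804 genes, called under 0.05. Exact permutation tests used all 252 divisions of 10 arrays (smallest 2-sided p 0.00794), and correlations 100000 permutations, within groups where group means were subtracted (scipy 1.17.1, numpy 2.4.6).

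Members and gene lists were chosen with earlier results of these data known. Genes named were the members, 12 fixed pathway genes, up to 3 genes of lowest p per list and comparison, and the 3 nearest genes of each member. Alternatives covered filter, probe sets, normalization, moderation, 2-group fits, the replicate number as a block, the cell cycle score, and arrays left out. The fit was tested on simulated data. Arrays give no read depth; their number limits precision.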

Additional observations from a re-analysis of the deposited data

Results flagged for a closer look

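Within a group of 5 arrays, the highest or lowest was set against the others by Dixon's ratio for the members, both target minus sensor differences and the pathway genes named. The members gave 0 flags. Of 114 group tests 6 stood out, and chance alone flags about 1 in 20. LPS+RSV replicate 1, the array least like the rest, was the high one in 4 of them: BTRC at 8.79 against 8.54 to 8.59, MAFG at 6.52 against 6.26 to 6.31, NPAS2 at 5.78 against 5.41 to 5.51, and SRXN1 at 7.92 against 7.30 to 7.46. GPX2 was high in LPS+RSV replicate 2, at 6.89 against 5.89 to 6.03, and TALDO1 in LPS replicate 1, at 6.85 against 6.68 to 6.73.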

How the results depend on the processing

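Genes called in LPS+RSV against LPS numbered 5, but 14 with cyclic loess, 0 in a fit to the 2 groups (1897 at an unadjusted limma p under 0.05), 3 with the replicate block, 21 with the cell cycle covariate, 1 without LPS replicates 1 and 2, and 1 to 121 without 1 array, with 102 without LPS replicate 3 and 121 without LPS+RSV replicate 2. In LPS against control they numbered 3, but 1 with array medians subtracted, 0 in a fit to the 2 groups (1101 unadjusted), 6 with the block, 69 with the covariate, and 1 to 10 without 1 array. Whether replicate numbers pair the arrays was only described, not tested. Deviations of same-numbered arrays correlated between -0.54 and 0.71, with a median of -0.19, against 0.02 for arrays of different numbers. LPS+RSV and control correlated at 0.71 for number 2 and 0.43 for number 5. LPS and control correlated at -0.54 for number 5. Of 15 arrays, 5 correlated best with their own number, and the share that chance would give was not computed. No member's call changed with the block. In LPS+RSV against LPS, without 1 array, AHR ranged from -0.55 to -0.41 and NFE2L2 from -0.65 to -0.45; HMOX1 ranged from -0.16 to 0.043 and was 0.045 without LPS replicates 1 and 2. TIPARP in LPS+RSV against control ranged from -0.077 to 0.0052. Each target minus sensor change kept its direction and an adjusted exact permutation p over 0.05, but sizes moved: without LPS+RSV replicate 1, TIPARP minus AHR was 0.13 against LPS and 0.044 against control, and HMOX1 minus NFE2L2 was 0.14 against control; in LPS against control, HMOX1 minus NFE2L2 ranged from -0.23 without LPS replicate 2 to -0.028 without control replicate 5, and TIPARP minus AHR from -0.16 without control replicate 3 to -0.032 without control replicate 4. Without LPS+RSV replicate 1, an alternative added after the data were seen, r over the arrays was 0.636 for AHR and TIPARP (adjusted permutation p = 0.0455), 0.837 for TIPARP and NFE2L2 (0.00148) and 0.134 for AHR and HMOX1; with group means subtracted it was 0.0051 for AHR and TIPARP and 0.519 for TIPARP and NFE2L2. Without the 2 farthest arrays r was 0.189 for NFE2L2 and HMOX1 over the arrays and 0.476 for TIPARP and HMOX1 within groups, where removing the cell cycle score gave 0.595, and -0.77 for NFE2L2 and HMOX1. The causes were not tested. Members have 1 probe set each, so averaging probe sets left their values as they were.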

Other observations

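Other bHLH-PAS genes, the family of AHR, were measured for 6 members besides AHR and ARNT. EPAS1, the hypoxia factor HIF-2 alpha, averaged 7.52 in LPS+RSV, 8.01 in LPS and 7.46 in control. Its difference was -0.49 ± 0.13 in LPS+RSV against LPS (SE, adjusted p = 0.127, limma) and 0.54 ± 0.13 in LPS against control (adjusted p = 0.290), where its groups did not overlap. Among the circadian members, BMAL1 differed by -0.33 ± 0.10 in LPS+RSV against LPS without overlap (limma adjusted p = 0.151), CLOCK by -0.25 ± 0.11 and NPAS2 by 0.17 ± 0.11 in LPS+RSV against control. ARNT2 differed by -0.12 ± 0.11 and SIM2 by 0.02 ± 0.08 in LPS+RSV against LPS. BMAL1, ARNT2 and SIM2 were named after their values were seen. None of these genes passed in any of the 3 comparisons (0 genes).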
